A study of Mus musculus with 4 samples.

Results

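Tight junctions seal the space between neighbouring epithelial cells, and the genes described here are 9 of those that build or anchor them: the claudins Cldn1, Cldn3, Cldn4, Cldn6, Cldn7 and Cldn23, occludin (Ocln), junctional adhesion molecule A (F11r) and the scaffold protein ZO-1 (Tjp1). Their chromatin was taken from 2 lists of ATAC-seq peaks, intervals in which the Tn5 transposase cut more often than background and which therefore mark open chromatin. A peak was assigned to a gene when its centre lay within 100 kb of the gene's start site, that of the principal transcript in the GENCODE mouse annotation (release 21, GRCm38). By this rule 131 of the 65467 control peaks and 1 of the 3103 AP-2-dependent regions belonged to the 9 genes. Because the start sites of Cldn3 and Cldn4 are 39.28 kb apart, all 21 peaks of Cldn4 were also peaks of Cldn3, and the 131 peaks made 152 assignments.

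The tissue was the surface ectoderm of the facial prominences, separated from the mesenchyme of E11.5 mouse embryos and pooled. Control embryos were Tfap2a flox/+; Tfap2b flox/+ littermates without Crect, so they carried a floxed copy of each gene but no recombinase (2 libraries), and EDKO embryos were Crect; Tfap2a flox/flox; Tfap2b flox/flox (2 libraries). Tfap2a and Tfap2b encode the transcription factors AP-2α and AP-2β. Crect is a Cre transgene active in early ectoderm and driven by an enhancer of Tfap2a itself, so the floxed genes were removed in the ectoderm that expresses it, and the other members of the AP-2 family kept their normal alleles. The control list holds the peaks of both control libraries called together, and the AP-2-dependent list holds the intervals that passed the threshold when the control libraries, combined, were called against the combined EDKO libraries as background. Each list is therefore 1 pooled call. No value per library, no error between libraries and no test of a single gene could be had from them, and they do not give the number of reads behind a peak. An interval missing from the AP-2-dependent list did not pass the threshold of that call, which does not show equal accessibility in the 2 genotypes.

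Claudins are small proteins with 4 membrane-spanning segments that line up into strands between cells, and the set of claudins a cell makes sets which ions and solutes pass. Occludin sits in the same strands, junctional adhesion molecules are immunoglobulin-type proteins of the lateral membrane, and ZO-1 ties all of them to the actin cytoskeleton.

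Open chromatin was present at the start sites of all 9 genes, against 65.3% of all protein-coding genes. An AP-2-dependent region lay within 100 kb of 1 of the 9, against 20.2% of all protein-coding genes. That gene was Cldn1, where the region lay 1.597 kb upstream of the start site. Sequences of regions and promoters come first, as description. The region at Cldn1 is the only AP-2-dependent one near the 9 genes. The region at the start site of Cldn8, another claudin, is the strongest one near any other claudin and is shown for comparison. The 3 promoters are those of Cldn1, of Cldn4, which had the strongest start-site peak among the 6 claudins of the set, and of Ocln, which had a match to the AP-2 string just upstream of its start site. Both regions are printed as 300 bases around their summits from the GRCm38 genome, and the promoters as the 250 bases before the RefSeq start site in GRCm38.p6. The 4 genes lie on chromosomes 16, 5 and 13, and all 5 sequences are printed on the minus strand, in the direction of transcription. Capitals mark matches to any of 6 strings searched on both strands. These were GCCNNNGGC for AP-2, a second AP-2 string with GCC and GGC 4 bases apart, AACCGGTT for the grainyhead-like factors, GGAATG for TEAD factors, CATG and CATG 6 bases apart for the p53 family, and CCA, AG and GGC with 2 bases between each for CTCF. The AP-2 strings can overlap each other.
Cldn1 AP-2-dependent region (chr16:26373259-26373558): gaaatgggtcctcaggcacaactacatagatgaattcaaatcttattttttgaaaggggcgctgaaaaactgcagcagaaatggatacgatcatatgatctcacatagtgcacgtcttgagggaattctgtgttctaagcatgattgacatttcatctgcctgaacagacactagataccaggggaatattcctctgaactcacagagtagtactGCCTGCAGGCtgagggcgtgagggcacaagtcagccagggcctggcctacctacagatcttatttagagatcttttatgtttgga
Cldn8 AP-2-dependent region (chr16:88563410-88563709): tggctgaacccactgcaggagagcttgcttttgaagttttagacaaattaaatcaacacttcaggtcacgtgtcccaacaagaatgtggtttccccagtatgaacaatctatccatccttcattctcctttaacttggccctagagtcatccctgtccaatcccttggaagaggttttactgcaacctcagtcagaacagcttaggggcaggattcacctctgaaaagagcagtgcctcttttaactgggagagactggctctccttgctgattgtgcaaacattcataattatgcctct
Cldn1 promoter (chr16:26371840-26372089): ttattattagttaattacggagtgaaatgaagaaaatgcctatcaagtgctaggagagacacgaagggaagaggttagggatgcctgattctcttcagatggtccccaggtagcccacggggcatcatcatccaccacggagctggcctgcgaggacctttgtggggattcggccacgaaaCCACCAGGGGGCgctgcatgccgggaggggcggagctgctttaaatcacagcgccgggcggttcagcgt
Cldn4 promoter (chr5:134946935-134947184): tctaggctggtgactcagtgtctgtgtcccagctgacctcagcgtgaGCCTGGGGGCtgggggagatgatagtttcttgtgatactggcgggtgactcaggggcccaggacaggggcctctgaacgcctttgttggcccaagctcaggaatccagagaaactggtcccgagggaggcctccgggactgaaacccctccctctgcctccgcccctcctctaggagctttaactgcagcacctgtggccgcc
Ocln promoter (chr13:100552499-100552748): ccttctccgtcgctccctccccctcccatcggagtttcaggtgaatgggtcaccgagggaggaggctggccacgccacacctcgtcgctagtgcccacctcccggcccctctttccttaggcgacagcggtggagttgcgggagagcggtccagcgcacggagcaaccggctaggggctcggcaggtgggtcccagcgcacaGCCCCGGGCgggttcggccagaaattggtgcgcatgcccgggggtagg
The Cldn1 region held 1 match, to the AP-2 string with 4 bases between its ends (chr16:26373334-26373343, 1497 bp upstream of the start site), and the Cldn8 region held none. In the Cldn1 promoter the marked word is the CTCF string (chr16:26371897-26371908), 61 bp upstream of the start site. The Cldn4 promoter carried the AP-2 string with the longer spacer 198 bp upstream, and the Ocln promoter carried GCCNNNGGC (chr13:100552538-100552546) 44 bp upstream. Ocln has a second RefSeq start site 220 bp farther upstream, not printed here, whose promoter window held no match to any of the strings. Across 32851 RefSeq promoter windows of 300 bases, which add the 50 bases after the start site, 16.6% held GCCNNNGGC, 14.8% the AP-2 string with 4 bases between, and 2.43% the CTCF string. Among the promoters not printed, the windows of Cldn3, F11r and Tjp1 each held 1 match to GCCNNNGGC, just after the start site. A match is a description of the sequence and not evidence of binding.

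All 9 genes had a control peak that covered the start site, against 65.3% of all 21853 protein-coding genes with a control peak within 1 kb of it. The strength of a peak is given here as the −log10 p of its summit, which the authors' caller computed without adjustment. F11r, which encodes junctional adhesion molecule A, had the strongest of these start-site peaks, with a summit −log10 p of 12.5 over 3138 bp (chr1:171436764-171439901). Cldn4 came next at 11.5 over 2333 bp (chr5:134945276-134947608). Only these 2 were above the upper quartile of all 13979 start-site control peaks, which was 11.2.

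The other start-site peaks lay close together. Tjp1, the ZO-1 gene, had a summit of 9.52 over 1642 bp (chr7:65370316-65371957). Cldn23, a claudin outside the classic group, had 9.48 over 1848 bp (chr8:35825435-35827282). Cldn7, a claudin that binds the adhesion protein EpCAM and is also found on the lateral membrane, had 9.11 over 2731 bp (chr11:69964614-69967344). These 3 were near the median of all start-site control peaks, 9.12. Cldn3 had a summit of 8.91 over 2799 bp (chr5:134985228-134988026). The peak of Ocln reached 8.42 over 2358 bp (chr13:100551046-100553403). Cldn1, the claudin without which the skin barrier of newborn mice fails, had 8.30 over 846 bp (chr16:26371197-26372042), the narrowest of the 9. Cldn6, a claudin of embryonic epithelia, was lowest with 7.85 over 1227 bp (chr17:23678902-23680128). No replicate error exists for these values, so neighbours in this order cannot be told apart by a test.

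As a group, the 9 start-site peaks had a median summit of 9.11, with 4 above the median of all start-site control peaks, and a median width of 2333 bp against 1308 bp, with 7 wider than that median. Among start-site control peaks their summits ranked from the 36.5th percentile (Cldn6) to the 87.9th (F11r). Control peaks off start sites had a median of 4.67, below all 9. The summits lay between 1 bp (Tjp1) and 205 bp (Cldn23) from the start site. GC content of the 9 peaks ran from 49.6% at F11r to 63.6% at Tjp1.

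**Figure D1:**
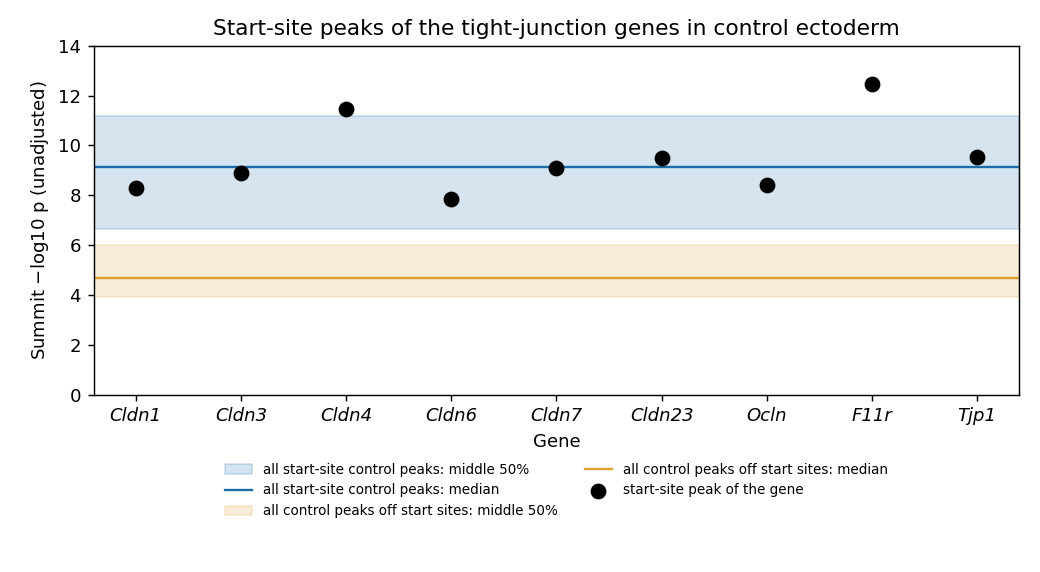
Summit −log10 p (y axis, unadjusted, from the pooled control call) of the start-site peak of each of the 9 genes (points), with the median (line) and the middle 50% (band) of all 13979 start-site control peaks in blue and of all 51319 control peaks off start sites in orange. F11r at 12.5 and Cldn4 at 11.5 lie above the blue band, the other 7 genes lie within it, and none reaches down to the orange band.

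Several of the genes have more than 1 annotated start site. At Tjp1, 4 of 6 annotated start sites had a control peak, in 2 separate peaks. The start site farthest from the principal one, 156.542 kb upstream, was also open, with a peak of 873 bp and a summit of 5.43 (chr7:65527045-65527917), weaker than the 9.52 at the principal start site. At Cldn1, 1 of 2 annotated start sites had a peak, and the closed one lay 11.047 kb downstream. At F11r, 2 of 3 had a peak, and the closed one lay 25.315 kb downstream. All annotated start sites of Cldn7 (5), Ocln (5), Cldn6 (3) and Cldn23 (2) fell at the same start-site peak, and Cldn3 and Cldn4 have 1 each.

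The number of control peaks around the start sites differed widely between the genes, from 3 to 30. F11r had 30 peaks within 100 kb, more than 99.0% of all protein-coding genes. Cldn7 had 25, Cldn6 had 24, Cldn3 had 23 and Cldn4 had 21, and these 5 genes were above the upper quartile of 13 over all genes. Cldn23 with 12 and Ocln with 10 lay between the median of 8 and that quartile. Tjp1 had 4 and Cldn1 had 3, at the 24.9th and 19.0th percentiles. The crowded windows also held many other genes. Cldn7 shared its window with the start sites of 17 other protein-coding genes, Cldn6 with 13, Cldn3 and F11r with 9 each, and Cldn4 and Ocln with 6 each, while Cldn1 and Cldn23 shared theirs with 1 each and Tjp1 with none. Of the 131 peaks, 50 or 38.2% lay at the start site of some gene, against 26.6% of all control peaks within 100 kb of a protein-coding start site. One of the 9 genes had the nearest start site for 29 of the 131. Closest to the limit of 100 kb were a peak 98.702 kb from Ocln, which was counted, and a peak 101.121 kb from F11r, which was not.

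**Figure D2:**
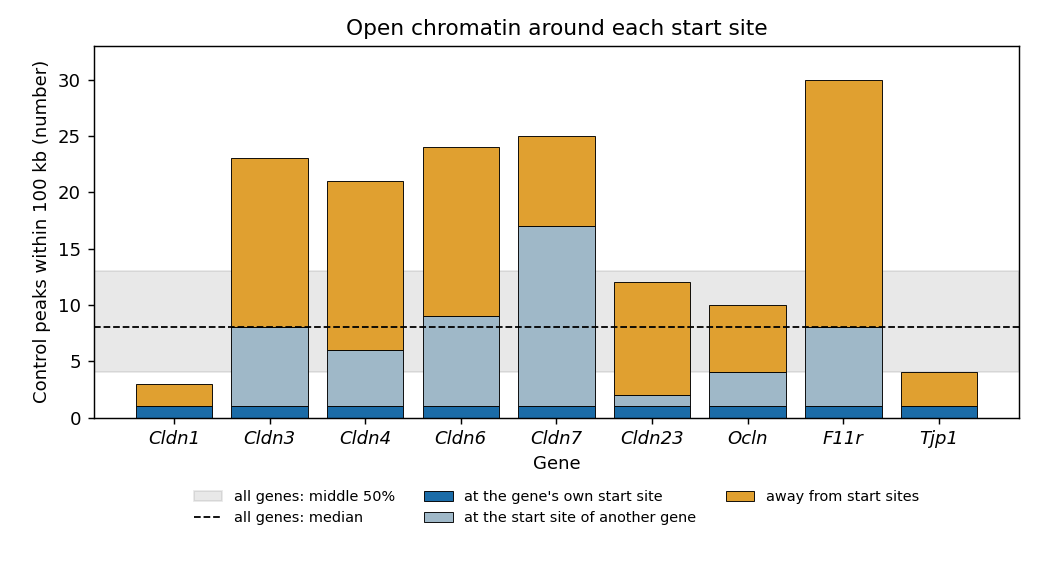
Number of control peaks within 100 kb of the start site of each gene (stacked bars), divided into the gene's own start-site peak, peaks at the start site of another gene and peaks away from start sites; the dashed line and grey band are the median (8) and the middle 50% (4 to 13) over 21853 protein-coding genes. Bars run from 3 peaks at Cldn1 to 30 at F11r, and Cldn7 has the most peaks at other genes' start sites, 16.

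Cldn1 stands in a sparse stretch of chromosome 16. Its 3 control peaks were the start-site peak, a peak of 704 bp centred 1.562 kb upstream (chr16:26373051-26373754, summit 7.72) and a peak of 447 bp centred 42.719 kb upstream (chr16:26414337-26414783, summit 5.59). The next control peak lay outside the window, at 119.905 kb. All 3 peaks had Cldn1 as the nearest gene.

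Cldn3 and Cldn4 encode claudins that serve as receptors for a clostridial enterotoxin, and the 2 genes are transcribed away from each other. Between their start sites lay 3 control peaks that were at neither of them. The strongest of these (chr5:134965414-134968089) was 2676 bp wide, with a summit of 9.64. Its area under the curve, the caller's sum of −log10 p over its threshold across the peak, was 6646. It was centred 19.462 kb upstream of Cldn3 and 19.818 kb upstream of Cldn4, about midway. By area under the curve it ranked above 94.9% of all control peaks and was close to the start-site peaks on either side, which had 7064 at Cldn3 and 7776 at Cldn4. The other peaks between them were weaker, with summits of 3.65 (chr5:134950977-134952117) and 5.66 (chr5:134970622-134971067). The strongest peak in both windows belonged to neither gene. It lay at Abhd11 (chr5:135007993-135010530), where the summit reached 13.9 and the area under the curve 13223.

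Cldn6 lies beside Cldn9, and the control peak at the Cldn9 start site (chr17:23682752-23684737, summit 5.80) was centred 4.496 kb downstream of the Cldn6 start site. On the other side the largest peak of the window covered 5119 bp at Thoc6 (chr17:23672938-23678056), centred 3.752 kb upstream of the Cldn6 start site, with a summit of 12.2 against 7.85 for the start-site peak of Cldn6 itself. Away from start sites the largest area under the curve was at a peak 20.695 kb downstream, between genes (chr17:23699276-23700611, area 3153, summit 9.43), and the highest summit, 10.7, at a peak in intron 1 of Zfp13 (chr17:23592369-23593238, area 3043), 86.445 kb upstream. Only 1 of the 24 peaks had Cldn6 as the nearest gene.

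Around Cldn7, 16 of the 24 other peaks were at the start sites of other genes. The largest was at Eif5a (chr11:69919537-69922722), with a summit of 14.5 and an area of 14117, against an area of 7410 for the start-site peak of Cldn7. Away from start sites the strongest was in intron 1 of Dlg4 (chr11:70020231-70022052), 55.746 kb downstream, with a summit of 10.7. Cldn23 showed the reverse arrangement, with 1 peak at another gene's start site and 11 of its 12 peaks nearest to Cldn23. Most of them were weak: apart from the start-site peak, the summits ran from 3.52 (chr8:35841585-35842029) to 7.32 (chr8:35837401-35838091, 11.187 kb upstream).

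Ocln had 10 peaks, of which 2 were in its own intron 4, centred 34.209 kb (chr13:100518070-100518507, summit 5.58) and 35.74 kb (chr13:100516593-100516922, summit 3.91) downstream of its start site. Its neighbour Marveld2 encodes tricellulin, the occludin relative at contacts of 3 cells, and had a start-site peak of its own in the window, with a summit of 8.38 (chr13:100616051-100617158) against 8.42 for Ocln. Between the genes lay 3 peaks of repeated sequence. The 31-base words of these peaks occur a median of 328 (chr13:100589023-100589541), 143 (chr13:100592627-100593222) and 193 (chr13:100593391-100594185) times in the assembly, and the aligner was allowed to report up to 10 positions per read, so these 3 peaks are uncertain. Apart from them and 1 near Cldn4 (chr5:134939208-134940180, 18 copies), the other 127 peaks were of single-copy sequence.

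F11r had the fullest window of the 9, but 10 of its 30 peaks had their summit in Nectin4, the gene of a nectin, another cell adhesion protein. One of these, in intron 1 of Nectin4 and centred 62.309 kb upstream of F11r, was 2887 bp wide (chr1:171373783-171376669, area under the curve 6047). Within F11r itself 1 further peak lay in intron 1 (chr1:171441449-171442017, 4.198 kb downstream, summit 6.05). Tjp1 had 3 peaks beside its start-site peak, all upstream of the principal start site and inside the longer annotated gene, and the strongest was centred 68.59 kb away with a summit of 6.37 (chr7:65439450-65440207).

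**Figure D3:**
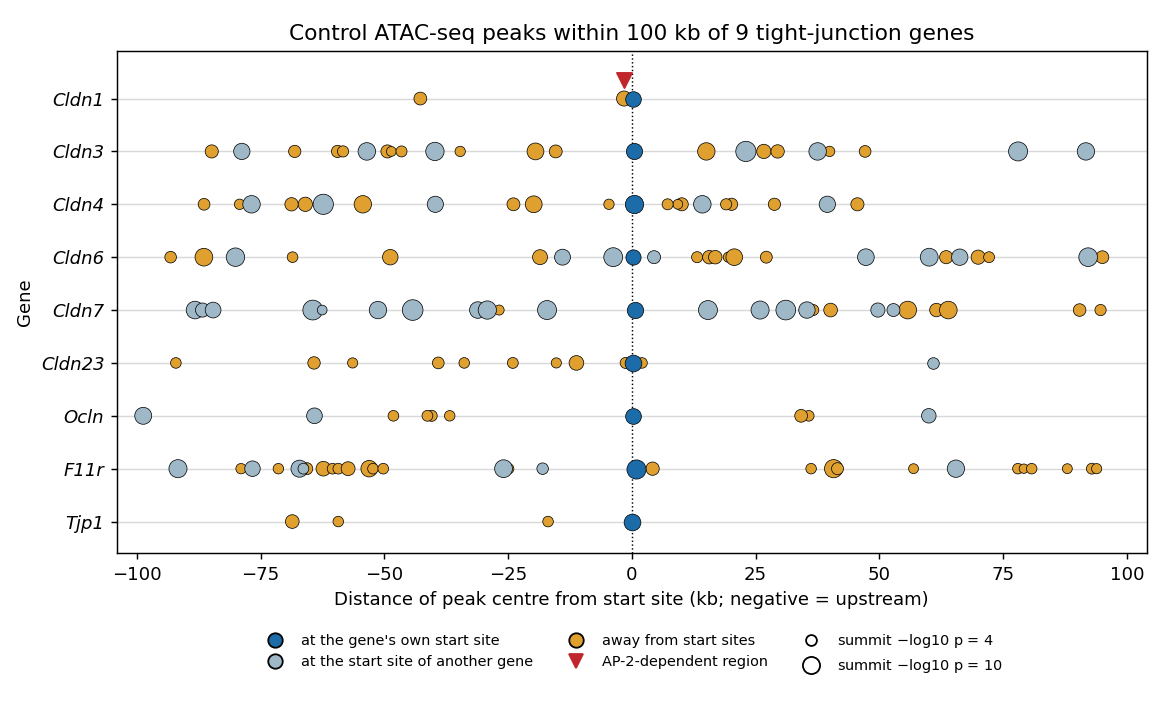
Centres of the control peaks of each gene by distance from its start site (x axis, kb, negative upstream in the direction of transcription), with circle area in proportion to the summit −log10 p, coloured by whether the peak is at the gene's own start site (blue), at that of another gene (grey) or away from start sites (orange). The red triangle is the only AP-2-dependent region within 100 kb of the 9 genes, 1.597 kb upstream of Cldn1, beside a window with 3 peaks, whereas the window of F11r holds 30 peaks and no region.

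The comparison of control with EDKO ectoderm asks which of these open sites depend on AP-2α and AP-2β. Of the 131 peaks, 1 overlapped an AP-2-dependent region, or 0.763% (95% Wilson interval 0.135 to 4.20%). The background was 4.48% of all 65467 control peaks and 3.65% of the 52461 within 100 kb of a protein-coding start site. The sets differ in make-up: start-site peaks were 38.2% of the 131, 21.4% of control peaks on chromosomes and 26.6% of those within 100 kb. The overlapping peak was among the 29 whose nearest start site was that of one of the 9 genes. No difference from the background was tested. With a limit of 250 kb the share was 2.72% (7 of 257 peaks). At start sites 0 of 50 peaks overlapped a region (Wilson interval 0 to 7.13%), where the background was 1.12%. Off start sites the share was 1 of 81 or 1.23% (0.218 to 6.67%). The background there was 5.39% of all such control peaks and 4.57% of the 38482 within 100 kb of a protein-coding start site. The interval includes both. These intervals cover counting error only, and peaks of 1 window are not independent of each other. By gene, 1 of 9 had a region within 100 kb, against 20.2% of all protein-coding genes.

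The region at Cldn1 (chr16:26373243-26373633) was 391 bp wide, between genes, and filled 55.5% of the control peak 1.562 kb upstream. Its summit had a −log10 p of 5.16 in the comparison of control with EDKO, above 71.0% of the AP-2-dependent regions, and its area under the curve of 589 was above 70.6% of them. The summit of the surrounding control peak lay 60 bp away. Its 31-base words occur once in the assembly, and its GC content was 44.8%. The start-site peak of Cldn1, less than 2 kb away, did not overlap a region. The same region was 89.697 kb upstream of Cldn16, another claudin gene, whose start site had no control peak.

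For the other 8 genes the nearest region was outside the window. It was 109.555 kb upstream of Cldn7, nearest to Tnk1 (chr11:69855713-69855968). At Cldn23 it was 111.57 kb downstream, nearest to Gm19410 (chr8:35714776-35715202), and at F11r 148.351 kb upstream, nearest to Usp21 (chr1:171289000-171289367). Tjp1 had its nearest region 206.054 kb upstream of the principal start site and nearest to Tarsl2 (chr7:65577119-65577467), but 49.512 kb from the farthest annotated start site of Tjp1. For Ocln the distance was 463 kb, for Cldn3 865 kb, for Cldn4 904 kb and for Cldn6 1878 kb. The median over the 9 genes was 206 kb, against 334 kb over all protein-coding genes with quartiles of 129 and 778 kb. Cldn7 and Cldn23 were thus just outside the limit, and a limit of 250 kb would give 8 regions at 5 of the 9 genes, 4 of them at F11r.

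The AP-2 string GCCNNNGGC was present in 7 of the 9 start-site peaks and absent from those of Cldn1 and Cldn6. Over their whole length, 32.4% of all control peaks held it. The 2 shares are not alike, since the median width was 2333 bp for the 9 and 560 bp for all control peaks. The whole-length share of start-site control peaks was not computed, so the count shows no excess. Cldn7 and Tjp1 had 4 matches each, Cldn3 had 3, Ocln 2, and Cldn4, Cldn23 and F11r 1 each. Within 100 bp of the summit it was found in 4 of the 9, those of Cldn3, Cldn7, Ocln and Tjp1. None of these 4 peaks overlapped an AP-2-dependent region, but only 1.12% of all start-site control peaks did. The Cldn1 region, AP-2-dependent by that call, lacked GCCNNNGGC and held the AP-2 string with 4 bases between. Over their whole length, 29.7% of all AP-2-dependent regions held GCCNNNGGC and 23.5% held the string with 4 bases between. The latter was in 29.0% of all control peaks, which are wider, so a match does not mark a region as AP-2-dependent. Over all 131 peaks the string lay within 100 bp of the summit in 22 or 16.8% (11.4 to 24.1%), near the 14.4% of all control peaks, and in 22.7% of the AP-2-dependent regions. In windows of the same length 1 kb from the summit it was found in 2.29% and 4.82%. At start sites the share was 24.0% against 21.8%, and off start sites 12.3% against 12.4%. GGAATG was found in 22.9% of the peaks against 17.9% of all control peaks. At start sites it was in 10.0% (4.35 to 21.4%) against 8.05%, and off start sites in 30.9% (21.9 to 41.6%) against 20.5%. Several strings and classes of peak were compared, the intervals cover counting error only, and no difference was tested. The CTCF string was in 9.92% against 8.09% and the p53 family string in 1.53% against 1.12%. AACCGGTT was in none of the 131 and in 0.338% of all control peaks.

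Other genes of the pathway were taken from a list of 63 tight-junction genes, of which 44 or 69.8% had an open start site and 11 or 17.5% had an AP-2-dependent region within 100 kb, against 65.3% and 20.2% of all protein-coding genes. Open start sites were divided unevenly between the groups. All of the 11 plaque proteins, 9 polarity proteins, 4 proteases and inhibitors, 3 genes of the tricellular lipoprotein receptor family and 2 MARVEL proteins had one, as did 4 of 5 other junctional adhesion molecules. Of the 29 other claudins 11 did. This count includes 10 genes of the Cldn34 group, of which 5 had no control peak in the window at all.

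Among the other claudins, 5 had a region. Cldn8, a claudin best known from the collecting duct of the kidney, had 3, centred 0.298, 7.366 and 23.8 kb upstream of its start site. The one at the start site (chr16:88563202-88563759) was 558 bp wide with a summit −log10 p of 10.5, against 5.16 at Cldn1, and by area it ranked above 93.2% of AP-2-dependent regions, against 70.6% at Cldn1. It lay within a control peak of 2343 bp with a summit of 11.7. Its neighbours were weaker, with summits of 4.30 (chr16:88570360-88570738) and 4.52 (chr16:88586837-88587129), and none of the 3 held either AP-2 string anywhere in its length. The 3 regions were also within 100 kb of Cldn17, which had a further region 81.2 kb downstream. Cldn16 shared the region of Cldn1, and Cldn11, a claudin of myelin, shared with Prkci a region nearest to Skil. Cldn34d had a region in its intron 1 whose words occur a median of 2 times in the assembly, so it is uncertain.

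Outside the claudins, Tjap1, a plaque protein gene, had 2 regions in its intron 2. The one 16.665 kb downstream of the start site (chr17:46266061-46266629) had a summit of 12.0 and held GCCNNNGGC, but its nearest start site was that of Lrrc73. The other, 5.276 kb downstream (chr17:46277589-46277879), had a summit of 5.41. St14, the gene of the membrane protease matriptase, had a region 27.931 kb upstream in intron 11 of Aplp2 (chr9:31159422-31160146, summit 5.58). The polarity genes Pard3, with a region 59.991 kb downstream in its intron 1, Pard6g, 57.131 kb downstream in its intron 2, and Prkci, 81.105 kb downstream, had summits between 3.78 and 4.11. Ildr1, a gene of tricellular contacts, had a region 96.278 kb downstream (summit 3.52), which was nearest to Slc15a2. The region of Pard6g was nearest to Gm21886. GCCNNNGGC was also found in the regions of Pard6g and Ildr1. The AP-2 string with 4 bases between was in those of Pard3, Pard6g and St14 and in the Tjap1 region 5.276 kb downstream. In all, the 17 pairs of gene and region came from 13 distinct regions, of which 1, at Cldn8, was at a start site. Neighbouring family members share windows, so the counts are not independent.

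**Figure D4:**
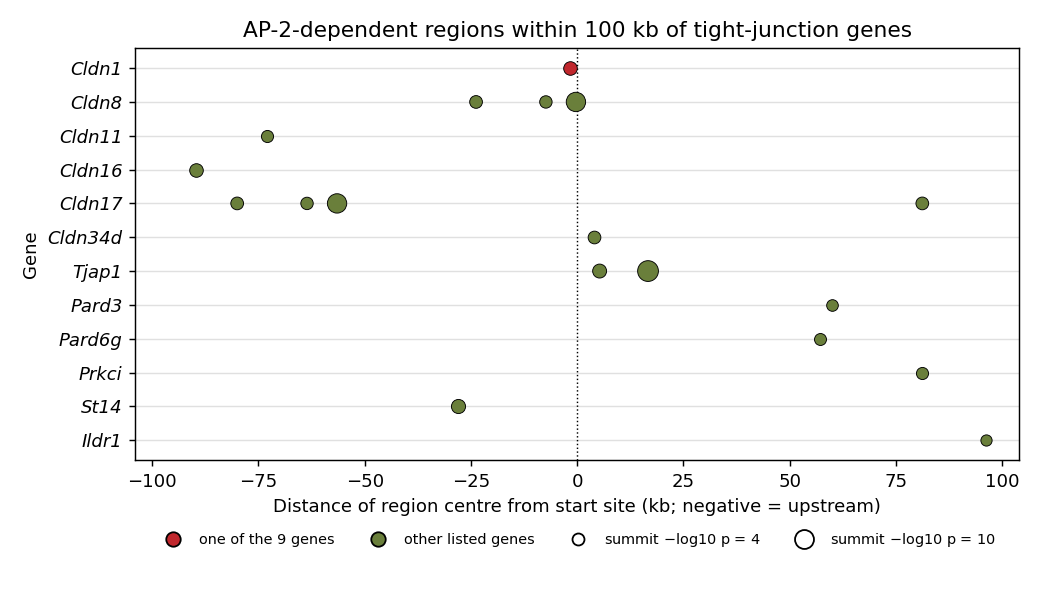
Centres of AP-2-dependent regions within 100 kb of Cldn1 (red) and of the 11 other tight-junction genes that had any (green) by distance from the start site (x axis, kb, negative upstream), with circle area in proportion to the summit −log10 p of the comparison of control with EDKO. The largest circles are at Cldn8 (10.5, shown again in the row of Cldn17, whose window shares it) and at Tjap1 (12.0), and most regions lie more than 5 kb from the start site.

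The label of the tissue was compared with markers by their start sites in the control list. All 10 surface ectoderm markers were open, Epcam, Cdh1, Krt14 and Trp63 among them. All 9 mesenchyme markers and all 5 neural markers were open as well, as were 2 of 5 endothelial markers (Cldn5 and Kdr), while Pecam1, Cdh5 and Tek were not. An open start site therefore did not separate ectoderm from mesenchyme here, and the part of other cell types in the peaks above was not tested. In pooled tissue, fewer cells of a type and less open chromatin per cell cannot be told apart.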

How the data were processed

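ATAC-seq of 4 libraries, 2 from control and 2 from EDKO facial surface ectoderm at E11.5, was used as the peak lists the authors deposited. Following the study's methods, adapters were removed with NGmerge, bowtie2 placed the reads on mm10 with its very sensitive preset and up to 10 positions per read, and Genrich called peaks from Tn5 cut sites without PCR duplicates or mitochondrial reads. The authors' lists give for each peak a score that is the area under its −log10 p curve per base, scaled and cut at 1000. They also give that area itself, a second deposited score, and the unadjusted −log10 p of the summit. Both replicates were combined in each call, so the lists give no read count, error or leave-one-out value. Values were used within their own list only.

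Peaks were assigned by centre to 1 start site per protein-coding gene (GENCODE release 21 of the mouse series, best APPRIS principal transcript), and lie within the GRCm38 chromosome lengths. A peak within 1 kb of a start site was called a start-site peak, and an overlap counted from 1 bp. Copy number is the median occurrence of a peak's 31-base words. The functions were tested on simulated data. Python 3.11.15, pandas 2.3.3, pysam 0.24.0 and statsmodels 0.14.6 were used. Promoters are from RefSeq. The 9 genes, the lists and the strings were chosen with earlier results of these data known. Named genes are the 9 members, listed tight-junction genes with a region, the gene nearest to or holding a region or peak described, and neighbours sharing a peak. Sequencing reads, coverage tracks and gene expression were not analysed here, and 1 list of cell type markers is not reported here.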

Additional observations from a re-analysis of the deposited data

How the results depend on the processing

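Of 28 alternatives to 7 results, 17 left the value within 1.5 times of the main count or inside its interval and 11 moved it. The 131 control peaks became 75 within 50 kb and 257 within 250 kb, and 29 when the nearest start site had to be that of a member. The 1 AP-2-dependent region became 8 within 250 kb and 2 when any annotated start site was used, the second being the region 49.512 kb from a start site of Tjp1. The share of peaks overlapping a region went from 0.763% to 2.72% (7 of 257) within 250 kb, inside its interval. The 11 listed genes with a region became 4 within 50 kb, 25 within 250 kb and 6 when only regions with an area of 500 or more were kept. The share of peaks with GCCNNNGGC rose from 16.8% to 36.6% over whole peaks, which are longer, and was 2.29% in windows 1 kb from the summit. The start-site peaks had a median percentile of 85.3 among all control peaks and 49.9 among start-site peaks. Taking the strongest peak within 1 kb could not change this median, since each gene had 1 start-site peak. All 9 start sites were open under each of 3 alternatives, of which 1, the use of any annotated start site, could not lower the count. Peaks off start sites, and single-copy peaks, were alternatives chosen after the data had been seen (3 in all), and each stayed within the same limits. No paired analysis was possible because both replicates were combined in each deposited call, and for the same reason no library could be left out. The number of libraries, and lists without read counts, limit the precision of the values.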
